A study of Mus musculus with 16 samples.

Results

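The genes described here are 39 p53 targets and cell death genes, followed by array over 8 groups of mouse embryonic stem cells. They were taken from a list of names, each measured by its probe with the highest mean signal, and all 39 had a named probe among 20972 genes with one. Of these members 38 passed the filter on dim probes and were tested, among 15662 genes tested in all. The remaining member, Fas, was above background on 5 of 16 arrays and was not tested. The cells were E14tg2a, an established mouse embryonic stem cell line, kept with serum on a gelatin coat in the presence of LIF, which supports self-renewal. All carried a c-Raf fusion protein that becomes active with 4-hydroxytamoxifen (4OHT), and the study followed the course of Erk stimulation that results. The control group DMSO received vehicle. The group 0h received 250 nM PD173074, an inhibitor of FGF receptors, for 24 hours and was not induced. The groups 30m, 1h, 2h, 4h, 8h and 24h received the same inhibitor for 24 hours and then 250 nM 4OHT for the time named, with the inhibitor present throughout. Their time in the inhibitor thus grew with the time of 4OHT, and no group had the longer exposure without 4OHT. Changes with 4OHT and changes with time in the inhibitor or in culture therefore cannot be told apart. Minutes are written in the descriptions at 4h, against hours in title and time point, and the hours were used. The promoter of the fusion and the number of clones are not given in the sources used here. Cells without the fusion exposed to 4OHT, and cells given 4OHT without the inhibitor, were not analysed here.

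The transcription factor p53 is held low by the ubiquitin ligase Mdm2 and, when released by DNA damage or other stress, raises genes that stop the cell cycle, repair DNA or kill the cell. Death through mitochondria is decided within the Bcl-2 family. BH3-only proteins such as Noxa (Pmaip1), Bim (Bcl2l11) and Puma (Bbc3) neutralise survival members such as Bcl-2 and Mcl-1 or switch on Bax and Bak1, which open the outer mitochondrial membrane so that Apaf1 and caspase-9 can form the apoptosome. Erk signalling is known to mark Bim protein for degradation and to act on several of these genes, and mouse embryonic stem cells are known to undergo apoptosis readily after DNA damage.

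For 8 of the 16 arrays the scanner file is attached to a different sample than the value table column with the same signals. Samples were taken from the column headings. Under the scanner file attachments limma called 0 members in each of the 9 comparisons, with 0 to 4 at an unadjusted p under 0.05, while it called 0% to 3.55% of all genes (2.09% at 24h against 0h), so every call below rests on the column headings. Each of 2 slides carries replicate 1 or replicate 2 of all 8 groups, and the labels do not say whether replicates are separate cultures, so the spread that p-values rest on may be technical. The share of spots well above background ran from 54.9% to 67.2%. All 8 embryonic stem cell markers were above background in every group, though Nanog, Esrrb and Zfp42 fell and Utf1 rose from 0h to 24h. Of 7 fibroblast or feeder genes Lum and Postn were below background in every group. Col1a1, Col1a2, Dcn, Col3a1 and Pdgfrb were above it on 1 or more arrays of each group, except Pdgfrb at 4h and 24h. Of these Col1a2 had mean levels of -1.65 in DMSO and -2.71 at 0h. The Erk-induced gene Egr1 read 1.24 and 0.72 at 0h and 6.85 and 5.88 at 2h. The array of 24h replicate 1 stood apart from its partner, with Nanog at -1.76 against 1.57 and the primitive endoderm gene Gata6 at 1.49 against -0.16. Levels here and below are on a log2 scale relative to the 75th percentile of each array's processed signal, with replicate 1 given first. Arrays measure bulk RNA, so fewer cells of a type and less RNA per cell cannot be told apart.

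A gene was called where its limma adjusted p (Benjamini-Hochberg over all genes tested) was under 0.05. In the first 2 hours of induction no member was called. Limma called 0% of all genes at 30m and at 1h and 0.115% at 2h (0.102% higher and 0.0128% lower), and 0, 2 and 5 members had an unadjusted p under 0.05. At 4h the BH3-only genes Pmaip1 and Bcl2l11 and the survival gene Bcl2 had risen over 0h and the BH3-only gene Bmf had fallen, which is 4 of 38 members against 3.19% of all genes (1.49% higher and 1.7% lower). At 8h Gadd45a and Perp had joined the 3 raised genes and Gadd45b had fallen, 6 of 38 members against 6.65% of all genes (3.12% higher and 3.52% lower). At 24h 11 members were higher and 4 lower than at 0h, 39.5% of the members against 23.7% of all genes (10.8% higher and 12.9% lower). All of these comparisons share the 0h arrays.

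The median change of the 38 members moved from -0.24 at 4h and -0.07 at 8h to 0.29 at 24h, beside medians over all genes tested of 0.01, -0.04 and -0.01. From 8h to 24h the median change was 0.39 against 0.02 over all genes, and 5 members rose (Mdm2, Ccng1, Plk2, Gadd45a and Polk) while 0 fell, where 8.84% of all genes were called (5.24% higher and 3.59% lower). Within the slides the median change from 8h to 24h was 0.43 and 0.25. Against DMSO 9 members were higher at 24h and 0 lower, where 11.4% of all genes were called (6.56% higher and 4.8% lower). Over the 9 comparisons 18 members (47.4%) were called at least once and 20 never, beside 29.7% of all genes called at least once.

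**Figure D1:**
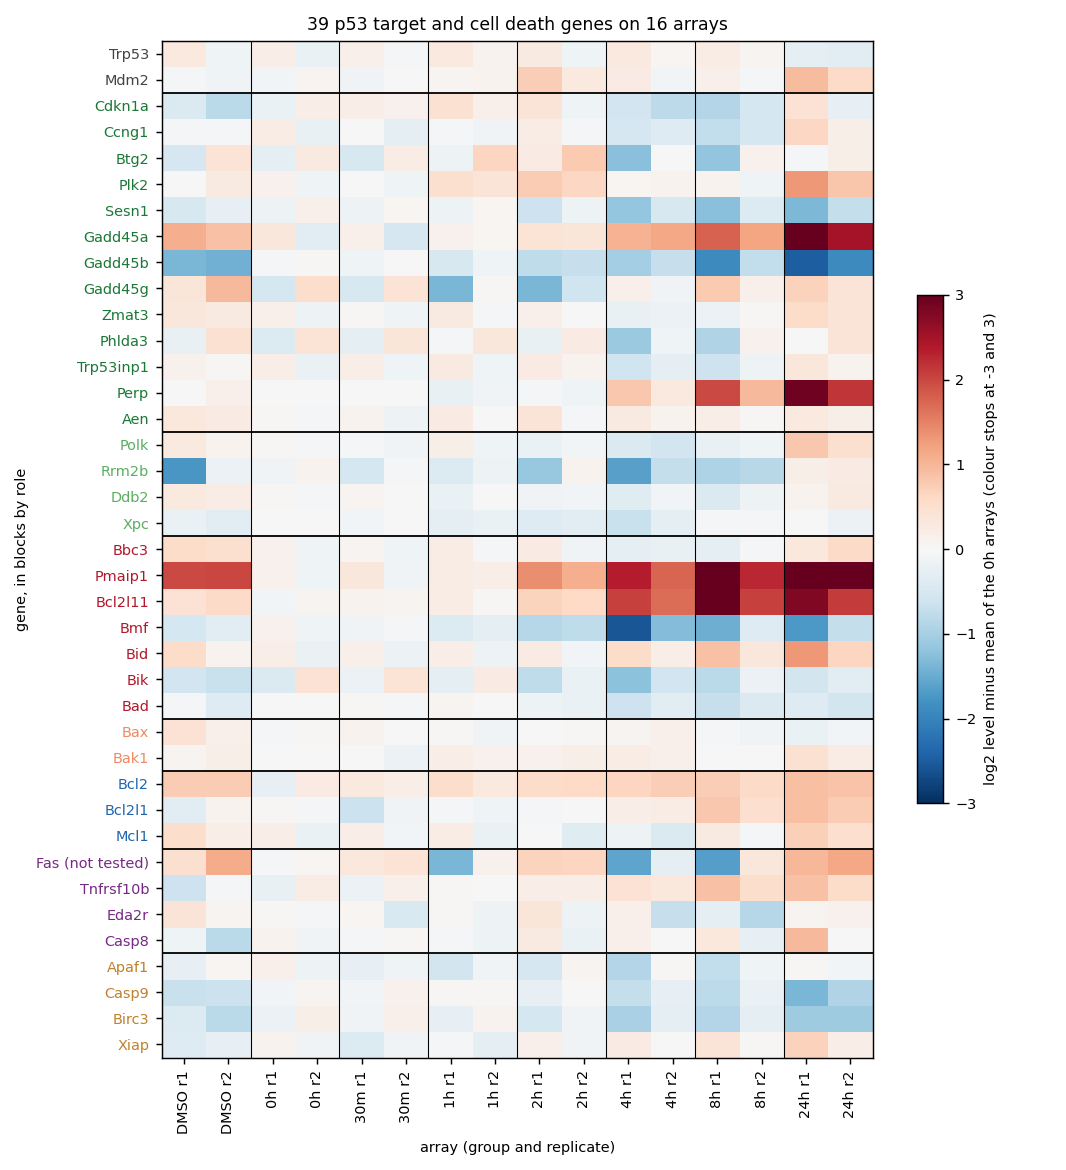
Log2 level of the 39 members (rows, in blocks by role) on 16 arrays (columns, by group and replicate) minus the mean of the 0h arrays, where red is higher and blue lower and colour stops at -3 and 3. Pmaip1 is red in DMSO and from 2h on, and Bcl2l11 is pale red in DMSO and at 2h and stronger from 4h. Gadd45a (also red in DMSO) and Perp are red at 8h and darkest at 24h, and Gadd45b is blue in DMSO and at 24h.

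Pmaip1, which encodes Noxa, a BH3-only partner of Mcl-1, changed more than any other tested member at 4h, 8h and 24h. Its DMSO arrays gave 1.99 and 2.01, and its 0h arrays 0.15 and -0.12. Under 4OHT it read 0.36 and -0.09 at 30m, 0.25 and 0.21 at 1h and 1.41 and 1.12 at 2h. It then read 2.36 and 1.77 at 4h, 3.22 and 2.28 at 8h and 3.92 and 3.51 at 24h. Both 0h arrays lay below DMSO, the arrays from 2h on all lay above those of 0h, and both 24h arrays lay above DMSO. Against DMSO it had fallen by 1.98 ± 0.31 at 0h (SE, n = 2 per group, adjusted p = 0.0112). Against 0h it rose by 2.05 ± 0.31 at 4h (adjusted p = 0.0129), by 2.74 ± 0.31 at 8h (adjusted p = 0.0015) and by 3.70 ± 0.31 at 24h (adjusted p = 7.96e-05), the last a 13.0-fold change. The change at 24h was 3.76 within slide 1 and 3.63 within slide 2. Relative to DMSO the 24h level was higher by 1.71 ± 0.31 (adjusted p = 0.0076). At 2h its change of 1.25 was not called (adjusted p = 0.373), and with the replicate as a block it was (adjusted p = 0.034, where 0.377% of all genes were called higher and 0.102% lower). Without 24h replicate 1 it was called at 24h over 0h but not over DMSO.

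Bcl2l11, which encodes Bim, a BH3-only protein that binds all the survival members, rose at 4h and stayed up. It read -1.67 and -1.53 in DMSO, -2.18 and -2.04 at 0h, -1.88 and -2.07 at 1h and -1.44 and -1.52 at 2h. It then read -0.05 and -0.43 at 4h, 0.96 and -0.05 at 8h and 0.68 and -0.01 at 24h. From 4h on no array overlapped those of 0h or DMSO. The change from 0h was 1.87 ± 0.31 at 4h (limma adjusted p = 0.0174), 2.56 ± 0.31 at 8h (adjusted p = 0.002) and 2.44 ± 0.31 at 24h (adjusted p = 0.000525). The 24h and 8h arrays overlapped, with a difference of -0.12 (95% interval -0.80 to 0.56). Another probe of Bcl2l11, above background on 14 of 16 arrays, changed by 1.35 at 8h and by 0.23 at 24h, so the size at 24h depends on the probe.

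Bid and Bmf, the other BH3-only genes that were called, moved in opposite directions. Bid, the link from death receptors to mitochondria, read 3.41 and 3.03 at 0h and 4.52 and 3.87 at 24h, a change of 0.98 ± 0.29 (limma adjusted p = 0.0336). Its groups at 0h and 24h did not overlap, and the change was 1.11 within slide 1 and 0.85 within slide 2. Bmf, a BH3-only protein known from detached cells, read 2.23 and 1.95 at 0h, 1.24 and 1.32 at 2h and -0.47 and 0.78 at 4h. It had fallen by 1.93 ± 0.45 at 4h (adjusted p = 0.0474), by 2.69 within slide 1 and 1.17 within slide 2. At 8h it read 0.62 and 1.71 and at 24h 0.37 and 1.36, all below both 0h arrays but not called (adjusted p = 0.264 and 0.0744).

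Of the 7 BH3-only genes 3 had risen at 24h and 0 had fallen, where 10.8% of all genes were higher and 12.9% lower. The p53 target Bbc3, which encodes Puma, read 3.45 and 3.18 at 0h and 3.62 and 3.90 at 24h, a change of 0.45 ± 0.18 that was not called (adjusted p = 0.0996). It read 3.86 and 3.78 in DMSO. Bik and Bad, the remaining BH3-only genes, had changes of -0.43 and -0.47 at 24h and were not called. With the replicate as a block Bad and Bmf were called lower at 24h (adjusted p = 0.032 and 0.024). Another probe of Bad, above background on 16 of 16 arrays, changed by -0.17 at 24h.

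Of the 3 survival genes of the family Bcl2 and Bcl2l1 were higher at 24h than at 0h, beside 10.8% of all genes. Bcl2 read -1.98 on both DMSO arrays, -2.98 and -2.49 at 0h, -2.09 and -2.01 at 4h, -1.99 and -2.16 at 8h and -1.83 and -1.88 at 24h. Both 0h arrays lay below all the others named, and the 24h arrays lay just above DMSO. Under the inhibitor it had fallen by 0.76 ± 0.16 (limma adjusted p = 0.0329), and it rose over 0h by 0.69 ± 0.16 at 4h (adjusted p = 0.0488), 0.66 ± 0.16 at 8h (adjusted p = 0.0394) and 0.88 ± 0.16 at 24h (adjusted p = 0.00346). Its 24h level differed from DMSO by 0.12 (95% interval -0.23 to 0.48), which was not called.

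Bcl2l1, which encodes the survival protein Bcl-xL and a shorter death-promoting splice form, read 4.57 and 4.51 at 0h, 5.34 and 5.05 at 8h and 5.44 and 5.31 at 24h. It had risen by 0.84 ± 0.20 at 24h (limma adjusted p = 0.0115) and stood 0.94 ± 0.20 above DMSO (adjusted p = 0.0138), with no overlap in either comparison. Another probe changed by 2.28 at 8h and 1.04 at 24h, where the probe used here gave 0.66 and 0.84. Mcl1, the survival partner of Noxa, read 6.18 and 5.80 at 0h and 6.70 and 6.49 at 24h. Its change of 0.61 ± 0.23 was not called (adjusted p = 0.0857) except with the replicate as a block (adjusted p = 0.00042), and another probe gave 0.21.

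The effectors Bax and Bak1, which form the membrane pore, were not called in any comparison without the replicate block. Bax, also a p53 target, read 5.67 and 5.39 in DMSO, 5.22 and 5.28 at 0h, 5.21 and 5.15 at 8h and 5.04 and 5.17 at 24h. Its change from 0h to 24h was -0.15 (95% interval -0.42 to 0.13). Bak1 read 3.99 and 3.97 at 0h and 4.44 and 4.21 at 24h, a change of 0.35 ± 0.12 (limma adjusted p = 0.0555, and 0.017 with the replicate as a block).

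**Figure D2:**
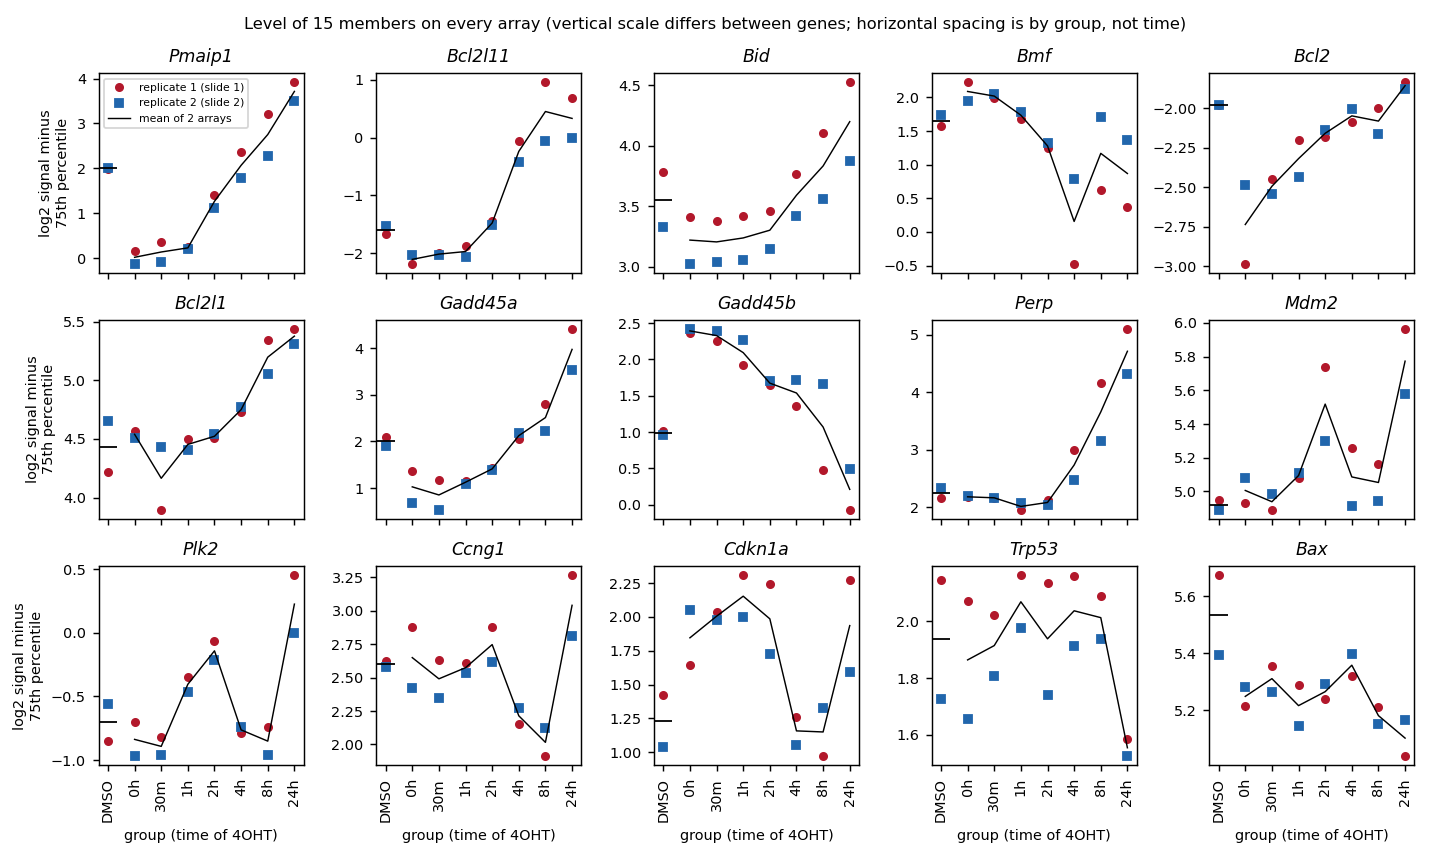
Log2 level on every array (vertical axis, a scale of its own for each gene) by group (horizontal axis, spaced by group and not by time), with circles for replicate 1, squares for replicate 2 and a line through the group means from 0h to 24h. Pmaip1 climbs from 0.15 and -0.12 at 0h to 3.92 and 3.51 at 24h, Bcl2l11 steps up at 4h, and Ccng1 and Cdkn1a have their lowest means after induction at 4h and 8h.

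Of the genes of the apoptosome and the inhibitors of apoptosis, Casp9 and Birc3 had fallen at 24h and Apaf1 and Xiap had not. At that time 12.9% of all genes were lower than at 0h. Casp9, the initiator caspase of the apoptosome, read 1.95 and 1.97 in DMSO, 2.54 and 2.68 at 0h, 1.83 and 2.42 at 8h and 1.24 and 1.72 at 24h. It was lower by 1.13 ± 0.23 at 24h than at 0h (adjusted p = 0.00637 by limma). Birc3, an inhibitor of apoptosis protein that acts at the TNF receptor, read -2.73 and -2.37 at 0h and -3.62 on both 24h arrays, and had fallen by 1.07 ± 0.29 (adjusted p = 0.0215). For both genes the 24h arrays lay below the 0h arrays. Neither was called between 24h and DMSO, where Birc3 read -2.95 and -3.37, though Casp9 was with the replicate as a block (adjusted p = 0.046).

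Xiap, which blocks caspases directly, read 2.16 and 2.31 in DMSO, 2.65 and 2.46 at 0h and 3.25 and 2.74 at 24h. It was called against DMSO, with a change of 0.76 ± 0.21 (limma adjusted p = 0.0445), and not against 0h (0.44 ± 0.21, adjusted p = 0.168). Apaf1, the scaffold of the apoptosome, read -0.76 and -1.06 at 0h and -0.88 and -0.99 at 24h, a change of -0.03 (95% interval -0.75 to 0.69).

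Among the death receptor genes Tnfrsf10b, the mouse receptor for TRAIL, was called. It read 1.94 and 2.53 in DMSO, 2.33 and 2.77 at 0h and 3.42 and 3.10 at 24h. The change from 0h was 0.71 ± 0.23 (limma adjusted p = 0.0487), of which slide 1 gave 1.09 and slide 2 gave 0.33, and the change from DMSO was 1.03 ± 0.23 (adjusted p = 0.0185). Casp8, the initiator caspase of these receptors, and Eda2r, a p53-regulated receptor, were not called without the block, with changes of 0.48 and 0.10 at 24h. Fas, the untested member, read -5.43 and -5.29 at 0h and -4.36 and -4.20 at 24h, near the background of the array.

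The p53 gene itself was not called higher in any comparison. Trp53 read 2.15 and 1.73 in DMSO, 2.07 and 1.66 at 0h, 2.09 and 1.94 at 8h and 1.58 and 1.52 at 24h. Its 24h arrays were below those of every other group, with a change from 0h of -0.31 ± 0.20 that was not called (limma adjusted p = 0.329). With the replicate as a block it was called lower at 24h against 0h (adjusted p = 0.047), 8h (adjusted p = 0.016) and DMSO (adjusted p = 0.03). Arrays give RNA levels, and p53 is known to be controlled mainly as protein, which was not measured here.

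Mdm2, at once the inhibitor of p53 and its target, was higher at 24h. It read 4.95 and 4.89 in DMSO, 4.93 and 5.08 at 0h, 5.74 and 5.30 at 2h, 5.16 and 4.94 at 8h and 5.97 and 5.58 at 24h. Both 24h arrays were above those of 0h, 8h and DMSO, and the 2h arrays were also above 0h. The rise was 0.77 ± 0.19 over 0h (limma adjusted p = 0.0143), 0.72 ± 0.19 over 8h (adjusted p = 0.0409) and 0.85 ± 0.19 over DMSO (adjusted p = 0.0173). At 2h its change of 0.51 ± 0.19 was not called (adjusted p = 0.697).

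Of the 13 growth arrest and damage response genes 5 were called at 24h against 0h (38.5%, beside 23.7% of all genes), and 11 had changes above 0. At 24h Plk2, Gadd45a and Perp had risen over 0h and Sesn1 and Gadd45b had fallen, with a median change of 0.23 against -0.01 over all genes. Gadd45a, a p53 target that acts on stress kinases and the G2 checkpoint, read 2.11 and 1.90 in DMSO, 1.37 and 0.68 at 0h, 1.43 and 1.39 at 2h and 2.06 and 2.19 at 4h. It then read 2.80 and 2.22 at 8h and 4.42 and 3.53 at 24h. Both 24h arrays were above all others. It rose by 1.49 ± 0.33 at 8h (limma adjusted p = 0.0294) and by 2.95 ± 0.33 at 24h (adjusted p = 0.000321), a 7.72-fold change, and was 1.97 ± 0.33 above DMSO (adjusted p = 0.00598).

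Its paralogue Gadd45b, known as an early response gene of growth factors and stress, went the other way. It read 1.01 and 0.96 in DMSO and 2.36 and 2.42 at 0h, a rise of 1.41 ± 0.33 under the inhibitor (limma adjusted p = 0.0458). Under 4OHT it read 1.64 and 1.71 at 2h, 1.37 and 1.71 at 4h, 0.48 and 1.66 at 8h and -0.07 and 0.49 at 24h. All arrays from 2h on lay below both 0h arrays, and both 24h arrays lay below DMSO. The fall from 0h was 1.32 ± 0.33 at 8h (adjusted p = 0.0405) and 2.18 ± 0.33 at 24h (adjusted p = 0.00128). Against DMSO the 24h change of -0.78 was not called (adjusted p = 0.167). Gadd45g, the remaining paralogue, read 2.50 and 3.55 at 0h and 3.72 and 3.41 at 24h and was never called.

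Perp, a membrane protein of p53-dependent death and of desmosomes, read 2.17 and 2.33 in DMSO, 2.17 and 2.19 at 0h, 2.996 and 2.47 at 4h, 4.17 and 3.15 at 8h and 5.10 and 4.32 at 24h. From 4h on all arrays were above those of 0h and DMSO, with replicate 1 the higher of the pair. It rose by 1.47 ± 0.33 at 8h (limma adjusted p = 0.0274) and by 2.53 ± 0.33 at 24h (adjusted p = 0.0006). Perp was the 1 member still called higher at 24h than in DMSO once 24h replicate 1 was left out.

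Plk2, a polo-like kinase induced by p53 and by growth factors, had high levels at 2h and at 24h. It read -0.85 and -0.56 in DMSO, -0.70 and -0.97 at 0h, -0.35 and -0.46 at 1h and -0.07 and -0.21 at 2h. It then read -0.79 and -0.74 at 4h, -0.74 and -0.96 at 8h and 0.46 and 0.00 at 24h. The change was 0.70 ± 0.18 at 2h, which was not called (limma adjusted p = 0.412), and 1.06 ± 0.18 at 24h (adjusted p = 0.00221). Between 8h and 24h it rose by 1.08 ± 0.18 (adjusted p = 0.00582).

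Ccng1, which encodes cyclin G1, rose from 8h to 24h. It read 2.88 and 2.42 at 0h, 2.16 and 2.27 at 4h, 1.91 and 2.12 at 8h and 3.27 and 2.82 at 24h. The 8h arrays were below those of 0h, by 0.63 ± 0.20, which limma called with the replicate as a block (adjusted p = 0.028) but not without it (adjusted p = 0.0877). From 8h to 24h it rose by 1.03 ± 0.20 (adjusted p = 0.0115), and the 24h and 0h arrays overlapped. Cdkn1a, which encodes the Cdk inhibitor p21 and is the most studied p53 target, read 1.42 and 1.04 in DMSO, 1.64 and 2.05 at 0h, 1.26 and 1.06 at 4h, 0.97 and 1.33 at 8h and 2.28 and 1.60 at 24h. It was not called in any comparison without the block. Its change was -0.70 ± 0.27 at 8h (adjusted p = 0.162), 0.09 ± 0.27 at 24h (adjusted p = 0.87) and 0.79 ± 0.27 from 8h to 24h (adjusted p = 0.106, and 0.0499 with the replicate as a block). Another probe of Cdkn1a, above background on 16 of 16 arrays, changed from 0h by -0.25 at 8h and by 0.30 at 24h.

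Sesn1, a stress sensor that restrains growth through mTORC1, fell. It read 0.97 and 1.20 in DMSO, 1.31 and 1.60 at 0h, 0.29 and 0.97 at 4h, 0.21 and 1.05 at 8h and 0.11 and 0.74 at 24h. All arrays from 4h on lay below both 0h arrays. The change was -1.03 ± 0.33 at 24h (limma adjusted p = 0.0442) and -0.83 ± 0.33 at both 4h and 8h, where it was called with the replicate as a block (adjusted p = 0.013 and 0.0099). Zmat3, a p53 target that binds RNA, read 2.81 and 2.50 at 0h and 3.20 and 3.05 at 24h and was just short of the threshold (0.47 ± 0.16, adjusted p = 0.0551). Btg2, Phlda3, Trp53inp1 and Aen were not called in any comparison without the block, with changes at 24h between 0.06 and 0.23.

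Of the 4 DNA repair and nucleotide supply genes Polk, which encodes a translesion polymerase, was called. It read -1.37 and -1.44 at 0h, -1.62 and -1.55 at 8h and -0.59 and -0.92 at 24h, with the 24h arrays above those of every other group. It rose by 0.65 ± 0.15 over 0h (limma adjusted p = 0.0109) and by 0.83 ± 0.15 over 8h (adjusted p = 0.00869), where 10.8% and 5.24% of all genes were called higher. Another probe of Polk, above background on 16 of 16 arrays, changed from 0h by 0.03 at 8h and by 0.46 at 24h. The probe used here gave -0.18 and 0.65, so the size of the rise depends on the probe. Ddb2 and Xpc, which recognise damage in nucleotide excision repair, had changes of 0.18 and -0.10 at 24h, which were not called. Rrm2b, a ribonucleotide reductase subunit induced by p53, was above background on 6 of 16 arrays, and its change of 0.21 had an interval of -0.94 to 1.36.

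**Figure D3:**
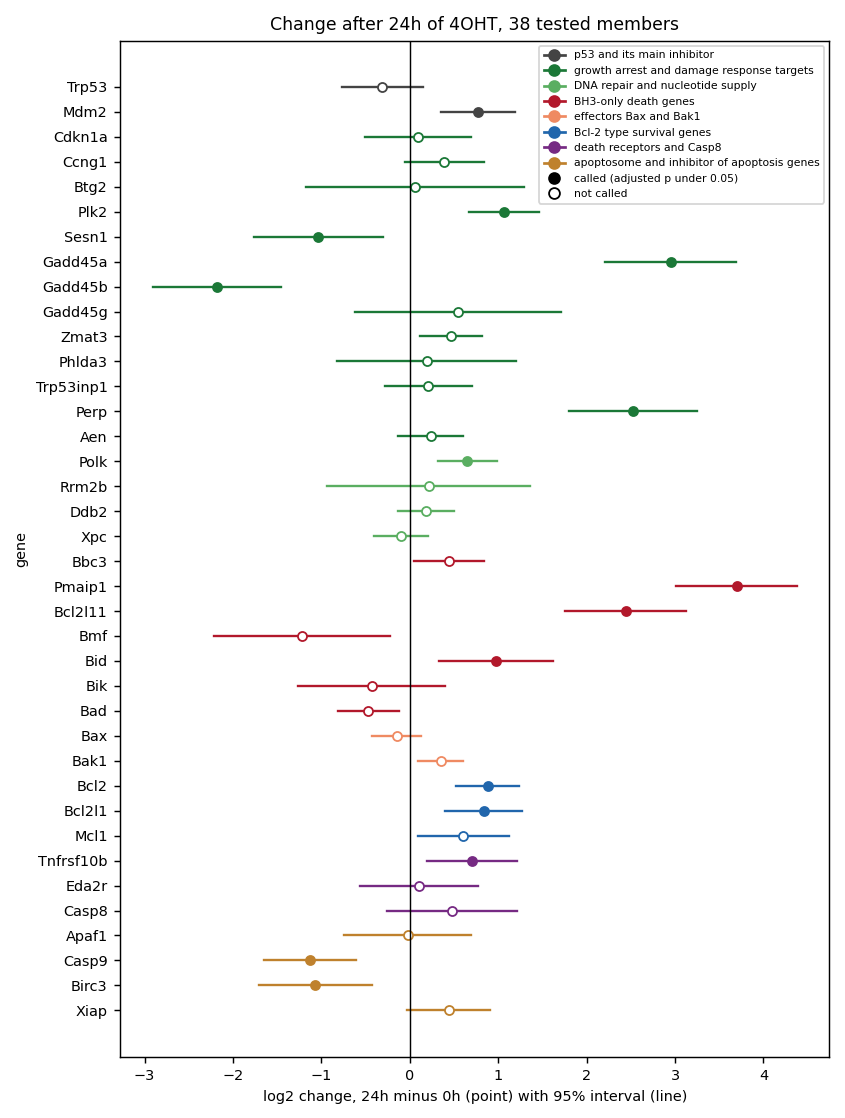
Log2 change from 0h to 24h for the 38 tested members (points) with its 95% interval from limma (lines), coloured by role, filled where called and open where not. The changes run from -2.18 for Gadd45b to 3.70 for Pmaip1, and Trp53, Cdkn1a, Bax and Apaf1 lie near 0 with open points.

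Promoter sequences are shown for 3 p53 targets that rose from 8h to 24h (Mdm2, Gadd45a and Ccng1), for Cdkn1a, which was not called, and for Sesn1, which fell. They give the 250 bases before a RefSeq transcript start, 5′ to 3′ on the strand of the gene, from the GRCm38.p6 table. The capitals mark the p53 half-site, the 10-base motif that p53 binds in pairs, searched by its consensus on both strands, where it reads the same. The windows are chr10:117710759-117711008 (minus strand) for Mdm2, chr6:67037408-67037657 (minus) for Gadd45a, chr11:40755287-40755536 (minus) for Ccng1, chr17:29090729-29090978 (plus) for Cdkn1a and chr10:41887189-41887438 (plus) for Sesn1. Only windows that held a half-site were shown. For Cdkn1a and Sesn1 the window is 1 of 2 in the table, and the other held no half-site.
Mdm2: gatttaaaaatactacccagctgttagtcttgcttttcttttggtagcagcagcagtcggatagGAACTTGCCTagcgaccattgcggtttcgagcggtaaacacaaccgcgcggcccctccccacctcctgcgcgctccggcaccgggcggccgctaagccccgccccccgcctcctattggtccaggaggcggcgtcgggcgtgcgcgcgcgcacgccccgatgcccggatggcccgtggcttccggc
Gadd45a: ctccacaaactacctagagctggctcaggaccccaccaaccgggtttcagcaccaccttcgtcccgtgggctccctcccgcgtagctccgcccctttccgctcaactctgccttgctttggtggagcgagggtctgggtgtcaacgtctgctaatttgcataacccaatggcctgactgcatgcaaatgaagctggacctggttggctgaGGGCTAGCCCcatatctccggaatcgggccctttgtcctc
Ccng1: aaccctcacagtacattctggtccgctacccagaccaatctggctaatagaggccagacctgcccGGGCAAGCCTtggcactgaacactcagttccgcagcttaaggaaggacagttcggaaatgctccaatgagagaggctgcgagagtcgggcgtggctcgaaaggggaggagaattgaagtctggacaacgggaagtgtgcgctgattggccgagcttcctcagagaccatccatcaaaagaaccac
Cdkn1a: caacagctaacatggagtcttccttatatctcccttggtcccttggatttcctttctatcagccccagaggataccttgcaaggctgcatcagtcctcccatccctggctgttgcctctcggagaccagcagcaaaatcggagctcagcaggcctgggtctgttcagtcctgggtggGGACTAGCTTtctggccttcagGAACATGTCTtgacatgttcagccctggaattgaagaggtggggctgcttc
Sesn1: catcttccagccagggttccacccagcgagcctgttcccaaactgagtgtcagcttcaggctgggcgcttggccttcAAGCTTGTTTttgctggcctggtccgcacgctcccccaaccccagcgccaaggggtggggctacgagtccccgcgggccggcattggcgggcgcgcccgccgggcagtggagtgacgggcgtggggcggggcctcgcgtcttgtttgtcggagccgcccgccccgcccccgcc

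In windows of 300 bases, from 250 before to 50 after a start, the half-site was present in 8.36% of 32851 windows of the table and in 11 of 44 windows of the members. The 2 Aen windows overlap and hold the same site, which is counted for each. The table held windows for 30 of 39 members, and the 10 members with a match were Aen, Bax, Bmf, Ccng1, Cdkn1a, Gadd45a, Mdm2, Polk, Sesn1 and Trp53. These include genes that rose, genes that fell and genes that were never called. The windows of Plk2, Bid, Bcl2l11 and Bcl2, which rose, held no match. The CArG box of serum response factor was in 0 member windows (1.63% of all windows) and the Egr motif GCGTGGGCG in 0 (0.612%). The ETS motif CCGGAAGT was in 1 (Bcl2l1, 3.89% of all windows) and the AP-1 motif TGAGTCA in 1 (Fas, 5.20%). A match is a description of letters and not of binding.

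Other genes of the same pathways were read from lists. Of 36 further p53 targets tested 6 were higher and 4 lower at 24h than at 0h (27.8% called, beside 23.7% of all genes), with a median change of 0.05. The changes that were largest in size among those called were Sfn, the checkpoint protein 14-3-3 sigma (2.42 ± 0.37, limma adjusted p = 0.00133), Plk3, a stress kinase (2.26 ± 0.38, adjusted p = 0.00221), Ddit4, an mTORC1 inhibitor (2.13 ± 0.45, adjusted p = 0.00709), and Ak1, an adenylate kinase (-1.46 ± 0.32, adjusted p = 0.00851). Sfn read 0.55 and 0.58 at 0h and 3.38 and 2.61 at 24h, with no overlap.

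Of 28 further cell death genes tested 3 were higher and 2 lower at 24h (17.9% called, below the 23.7% of all genes), with a median change of -0.01. Bok, a Bax relative, rose by 1.32 ± 0.31 (limma adjusted p = 0.0119). Parp1, a DNA repair enzyme and caspase substrate, fell by 0.65 ± 0.14 (adjusted p = 0.00804) and Birc2, a paralogue of Birc3, by 0.47 ± 0.14 (adjusted p = 0.0321). Of 20 regulators of p53 tested 2 were higher and 1 lower (15% called, also below that share). Hipk2, a kinase of p53, rose by 0.66 ± 0.18 (adjusted p = 0.0247) and Chek2, the checkpoint kinase, fell by 0.86 ± 0.25 (adjusted p = 0.0335). Cdkn2a, the locus of Arf, rose by 1.26 ± 0.41 (adjusted p = 0.0472), of which slide 1 gave 2.39 and slide 2 gave 0.14. The probe was not tested for which product of that locus it reads.

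Under PD173074 alone few members were called. Against DMSO 1 member rose at 0h (Gadd45b) and 2 fell (Pmaip1 and Bcl2), where 3.49% of all genes were called (2.21% higher and 1.28% lower), and the median change was -0.07 against -0.01 over all genes. Changes of the other 35 tested members ran from -0.97 for Gadd45a to 0.96 for Rrm2b. Rrm2b passed the filter on dim probes through the 0h group alone. In DMSO it read -6.14, below background, and -4.56, so the upper end of this range lies near the background of the array. Gadd45a, Mcl1 and Casp9 were called as well with the replicate as a block (adjusted p = 0.026, 0.017 and 0.022), making 2 higher and 4 lower against 8.25% and 6.69% of all genes.

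**Figure D4:**
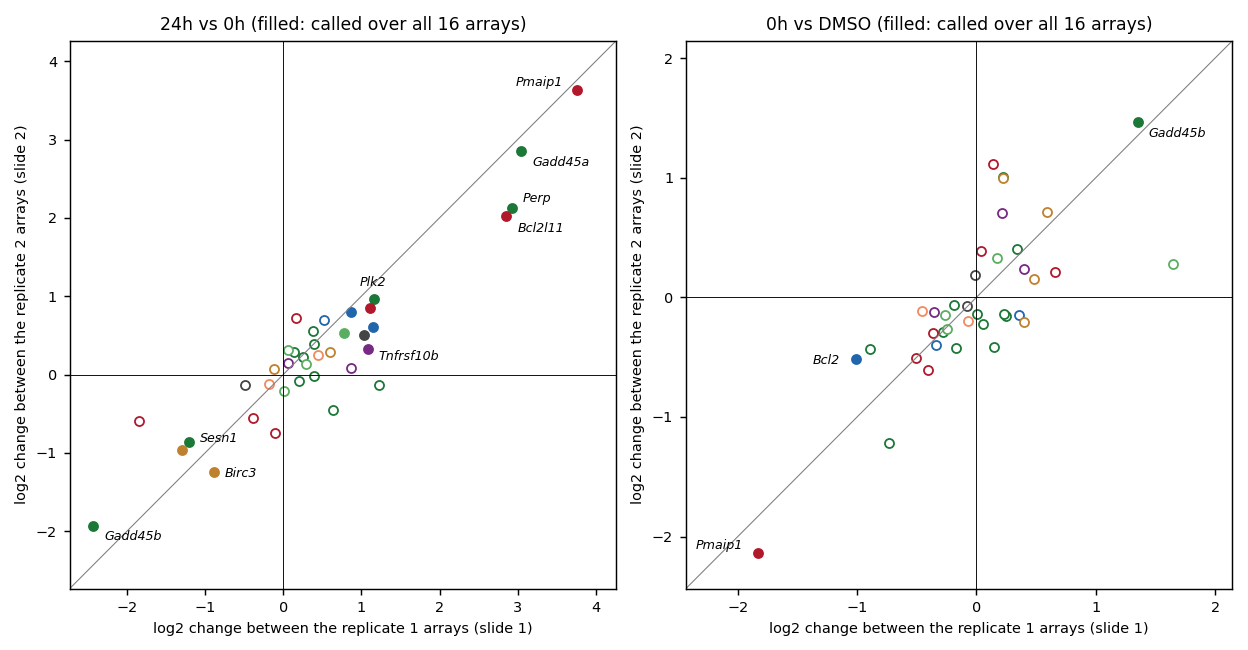
Log2 change on slide 2 (vertical axis, replicate 2) against slide 1 (horizontal axis, replicate 1) for each tested member, at 24h against 0h (left) and 0h against DMSO (right), filled where called over all 16 arrays and coloured by role as in the plot of 24h changes. Pmaip1 at 3.76 and 3.63 lies near the diagonal, while Tnfrsf10b at 1.09 and 0.33 changed more on slide 1.

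The replicate block, which is also the slide, moved the counts by more than 1.5 times in several comparisons. At 4h 5 members were higher and 7 lower with it (7.75% and 8.36% of all genes). The calls it added there were higher Gadd45a (adjusted p = 0.017) and Bid (0.038) and lower Sesn1, Phlda3 (0.035), Polk (0.026), Xpc (0.033), Bik (0.018) and Mcl1 (0.04). At 8h 7 were higher and 5 lower (8.43% and 12.6%), with Bid (adjusted p = 0.0044), Bcl2l1 (0.037), Ccng1, Sesn1, Bad (0.026) and Casp9 (0.049) added. At 24h against 0h 14 were higher and 7 lower (18.3% and 21.1%), with Trp53, Zmat3 (adjusted p = 0.018), Bmf, Bad, Bak1 and Mcl1 added, and all 15 members called without the block were called with it.

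From 8h to 24h the block gave 16 members higher and 3 lower (12.7% and 10.2% of all genes). Those it added as higher were Cdkn1a, Zmat3 (adjusted p = 0.016), Phlda3 (0.035), Perp (0.027), Ddb2 (0.021), Bbc3 (0.031), Pmaip1 (0.0089), Bid (0.03), Bak1 (0.03), Mcl1 (0.0033) and Eda2r (0.033). Those it added as lower were Trp53, Gadd45b (adjusted p = 0.039) and Casp9 (0.016). From DMSO to 24h it gave 13 higher and 4 lower (12.5% and 13.4%). It added Polk (adjusted p = 0.027), Rrm2b (0.039), Bid (0.0025) and Casp8 (0.015) as higher and Trp53, Sesn1 (0.019), Bax (0.02) and Casp9 as lower. Of these Rrm2b was below background on replicate 1 of both groups, at -6.14 in DMSO and -4.20 at 24h.

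Many calls at 24h depended on replicate 1. Without that array 6 members were higher and 1 lower against 0h, beside 5.32% and 6.55% of all genes, and the calls of Mdm2, Sesn1, Polk, Bid, Bcl2l1, Tnfrsf10b, Casp9 and Birc3 were lost. Without it limma called 0 members from 8h to 24h (8 at an unadjusted p under 0.05) and 1 against DMSO, where it called 2.27% of all genes in each comparison. Centring each array on its median in place of the 75th percentile left 4 higher and 4 lower at 24h against 0h (5.09% and 8.63% of all genes). It left 0 from 8h to 24h, with 8 at an unadjusted p under 0.05, where it called 3.42% of all genes (1.61% higher and 1.81% lower), and moved the median change of all genes at 24h to -0.10. Markers of other embryonic cells moved at the same time. Of 6 primitive endoderm markers Gata6 and Pdgfra were called higher at 24h than at 0h. Pdgfra was below background on both arrays of every group but 24h, and it passed the filter through 24h alone. Its 24h level was at least 2.89-fold that of 0h. The summed level of the list on a linear scale was 3.21 and 1.27 at 24h, against 0.469 and 0.430 at 0h. Gata6 alone made up most of the sum at 24h. Sox17 (0.84), Gata4 (-0.24), Sox7 (-1.47) and Dab2 (-1.27) were not called. With the replicate as a block Dab2 was called lower (limma adjusted p = 0.011). Of 5 trophoblast markers tested Cdx2 and Krt8 rose at 24h, while the sum of all 6 listed was 16.2 and 11.7 at 24h against 17.7 and 34.6 at 0h. Tfap2c was the largest part of these sums, with mean levels of 4.50 at 0h and 3.16 at 24h. Its change of -1.34 was not called (limma adjusted p = 0.129) except with the replicate as a block (adjusted p = 0.0045). Cdx2, which was below background at 0h, had already risen at 4h and at 8h, when Pmaip1 and Bcl2l11 were called. It was at least 33.7-fold higher at 4h (limma adjusted p = 0.00543), at least 30.6-fold at 8h (adjusted p = 0.00292) and at least 13.8-fold at 24h (adjusted p = 0.00185). Eomes was called higher at 8h (adjusted p = 0.0368), and at 4h no other trophoblast marker was called without the block. With the replicate as a block Eomes was called higher at 4h as well (limma adjusted p = 0.022). Of the stem cell markers Nanog fell by 4.63 ± 0.80 (adjusted p = 0.00252) and Zfp42 fell as well (adjusted p = 0.0154) from 0h to 24h, and Nanog, Esrrb, Zfp42 and Sox2 were lower at 24h than at 8h. Elf5, a defining trophoblast gene, was below background in every group. The part of such cells in the changes of the members was not tested.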

How the data were processed

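Total RNA of 16 samples in 8 groups of 2 was hybridised in 1 colour to Agilent mouse arrays; Cy5 is the dye in the labels and green the channel in the files. Per the file headers, the deposited signals are spot intensity values from Agilent Feature Extraction, which had subtracted background, and the deposited value table holds the same intensity values rounded, without scaling between arrays (matched here within 0.6%). Samples follow its column headings.

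Here log2 of the processed signal was taken, spots of a probe were averaged, and the 75th percentile over all spots that are not controls (445 to 660) was subtracted; control spots and outlier flags (147 to 240 per array) were left out. Of 55681 probes 27656 matched 1 gene of a RefSeq table by accession. Genes entered the test if the brightest probe passed the scanner's background flag on the 2 arrays of 1 or more groups. One limma fit (limma 3.58.1, R 4.3.3) of 8 group means over 16 arrays gave 8 residual degrees of freedom, with Benjamini-Hochberg adjustment over genes. The code was tested on simulated data.

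By the column headings same-numbered replicates share a slide: over 28 group pairs their deviations correlated at 0.328 to 0.659, so the numbers pair the samples and a fit with the replicate as a block is given beside results it changes. The analysis plan had assumed each group lies on 1 slide, which did not hold by the column headings. Members, lists and the rule for named genes (every member called at least once, Trp53, Mdm2, Cdkn1a, Bax and Bcl2, and up to 4 genes per further list with the largest called change at 24h; Bak1, Bbc3, Mcl1 and the other uncalled members are named as members) were chosen with earlier results of these data known. One gene that this rule names is not reported here. Alternatives were background correction, normalization, filter, probe choice, outlier spots, block, attachment and leaving out each array.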

Additional observations from a re-analysis of the deposited data

How the results depend on the processing

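With 2 arrays per group the number of arrays limits the precision. All 15 members called at 24h against 0h were also called under normexp background correction and under the mean over probes. Median centring gave 1 member called for 0h against DMSO, 0 at 4h, 3 at 8h, 8 at 24h, 0 from 8h to 24h and 4 for 24h against DMSO (1.67%, 0.664%, 3.04%, 13.7%, 3.42% and 5.19% of all genes), and medians of -0.0898 at 30m, -0.0732 at 1h and -0.107 at 2h, where the median of all genes moved too (-0.0814, -0.0952 and -0.101). Quantile normalization gave 1 for 0h against DMSO, 2 at 4h and 8 from 8h to 24h (3.83%, 3.72% and 9.67% of all genes), with medians of -0.0127 at 30m and -0.0134 at 2h. Without a filter on dim probes, which tests more genes, 1 was called for 0h against DMSO and 2 at 4h (1.62% and 1.3% of all genes). The replicate block gave 6 for 0h against DMSO, 1 at 2h, 12 at 4h and at 8h, 19 from 8h to 24h and 17 for 24h against DMSO. It ended no call of a member.

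Under the scanner file attachments 0 members were called in any comparison, beside 0% to 3.55% of all genes. With these attachments the comparisons of 2h and later groups with 0h or DMSO are also comparisons between slides. The medians then were -0.188 for 0h against DMSO, 0.00423 at 30m, 0.348 at 1h, 0.0806 at 2h, -0.0100 at 4h, 0.0728 at 8h, 0.135 from 8h to 24h and 0.0717 for 24h against DMSO. Directions turned for Pmaip1 (-0.43 at 4h, -0.16 at 8h), Bcl2l11 (-0.12 at 4h), Bmf (0.49 at 4h), Gadd45a (-0.34 at 8h), Gadd45b (0.17 at 8h), Sesn1 (0.32 at 24h), Bid (-0.12 at 24h) and Birc3 (0.10 at 24h). The cause was not tested.

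Leaving out 1 array gave 0 to 1 members for 0h against DMSO, 0 to 4 at 4h, 2 to 8 at 8h, 7 to 15 at 24h, 0 to 7 from 8h to 24h and 1 to 12 for 24h against DMSO. The share of all genes called ran from 0.46% to 1.25%, 0.262% to 3.65%, 0.971% to 12.2%, 11.9% to 20.7%, 2.27% to 9.1% and 2.27% to 12.4% in the same order. Arrays whose loss lowered the count of members by more than 1.5 times were each of the 4 at 0h against DMSO, at 4h 0h replicate 1, 0h replicate 2 and 4h replicate 1, at 8h both 0h arrays and 8h replicate 1. At 24h they were 24h replicate 1 (7 members left) and 0h replicate 2 (9), with 10 left without 0h replicate 1, from 8h to 24h 24h replicate 1 and 8h replicate 2, and against DMSO 24h replicate 1 and DMSO replicate 1. Medians ran from -0.0476 to -0.0144 at 30m, -0.0590 to 0.146 at 2h and 0.218 to 0.458 from 8h to 24h.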
